A study of Prunus armeniaca and Prunus mume with 8 samples.

Results

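The half-ripe tags are short cDNA sequences that an earlier sequencing project read from a Lambda Zap II library of half-ripe apricot (Prunus armeniaca) fruit. A probe was taken as a half-ripe tag where its description in any of the authors' deposited lists of probes at least 2-fold apart named that library. This gave 124 of the 10384 probes on the array (1.19%), each for a different GenBank entry. The descriptions give the number, clone and read end of each tag and no protein name, so the tags are named here by their entries. A probe without a place in 1 of the 7 lists (6 cultivar pairs and the species) carries no description, so every tag was chosen by its difference on these arrays. The differences below are therefore a description, without p-values, and counts are set beside the share over all tested probes.

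The study compared fruit of 2 species, Japanese apricot (Prunus mume, cultivars Ruantiaohongmei and Xiyeqing) and apricot (Prunus armeniaca, cultivars Manao and Zhenkui). The series title asks which genes of fruit development differ between them. Each cultivar had 2 arrays, 8 in all on 1 slide, hybridised with Cy3-labelled fruit RNA that the labels call mixed stages, where fruit of stages 1 to 8 was sampled between 3 and 13 weeks after full bloom. No treatment was applied in any group. Neither the stages behind a given array nor the trees behind the 2 arrays of a cultivar are stated, so the spread between arrays may be technical.

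A cDNA library is made from the messenger RNA of 1 tissue at 1 time, so each of its tags stands for a gene that was transcribed in fruit at that time. Half-ripe apricot lies in the phase in which a climacteric fruit begins to make ethylene, to soften by loosening and dissolving its cell walls, and to gain colour, sugar and aroma. A tag in such a library need not be specific to that phase, since genes active throughout fruit growth are sampled as well. Tags read from the 3′ end of a clone tend to lie near or in the untranslated end of the transcript, and those read from the 5′ end more often in coding sequence.

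Of the 124 tags, 82 carry CV entries, 64 of them read from the 5′ end and 18 from the 3′ end, and 42 carry CB entries, all read from the 3′ end. Probe and tag sequences were not used here. Because the probes were designed on apricot sequence, a lower signal in P. mume can reflect less transcript or a poorer match of the probe, and which of them applied was not tested. In fruit RNA, fewer cells of a type and less RNA per cell cannot be told apart.

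Signals are log2 values with the 75th percentile of each array set to 0, and signals of different probes are not comparable as amounts. An array had 7806 (Ruantiaohongmei replicate 2) to 8982 probes well above background, no probe was saturated, and the median spot was 6.35 to 8.15 times its local background. Arrays of 1 cultivar correlated at 0.969 to 0.992 across the 9125 tested probes, those of different cultivars of 1 species at 0.965 to 0.987, and those of unlike species at 0.878 to 0.927. Within the 124 tags the corresponding ranges were 0.941 to 0.989, 0.934 to 0.981 and 0.638 to 0.781. Probes are not independent replicates, and the tags were picked for their differences. Among fruit markers, all 10 described expansin probes (wall-loosening proteins), all 4 for ACC oxidase (the last enzyme of ethylene synthesis) and all 6 for fruit allergens were well above background on each array, as were all 3 for green tissue.

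The P. mume replicate 2 arrays stood apart from their replicate 1 arrays in a marker of ripening. Endopolygalacturonase, which cuts the pectin of softening fruit, has 6 described probes. On Ruantiaohongmei replicate 2 they lay at 1.25 to 5.96 and on Xiyeqing replicate 2 at -3.0 to 0.58, with all 6 well above background. On each of the other 6 arrays they lay at or below -4.10, with at most 1 of the 6 well above background. The single described seed probe, an oleosin of seed oil bodies, read 1.31 on Ruantiaohongmei replicate 2 and -4.90 or less on the other 7 arrays. Other markers also differed between the arrays of a cultivar. All 4 ACC oxidase probes were higher on replicate 2 in Ruantiaohongmei, by 0.63 to 1.97, and in Xiyeqing, by 1.45 to 2.34. Other fruit markers did not all rise there. Of the 10 expansin probes 7 were lower on replicate 2 in Ruantiaohongmei and 6 in Xiyeqing. Of the 6 allergen probes 4 were lower in Ruantiaohongmei, while all 6 were higher in Xiyeqing. The 2 probes for thaumatin were likewise lower in Ruantiaohongmei and higher in Xiyeqing. All 10 expansin probes were lower on Zhenkui replicate 2 than on replicate 1, with differences of -3.35 to -0.46, as were all 6 allergen probes, with -1.31 to -0.80. The labels call all 8 arrays mixed stages, and the codes that the arrays carry beside the cultivar name differ in a digit (2 and 4 for Ruantiaohongmei, 1 and 3 for Xiyeqing, 1 and 2 for the others) whose meaning is not given. Results are therefore also given without the 2 arrays with endopolygalacturonase signal. Without Zhenkui replicate 2 the species fit called 96 tags with a median of -0.78, against 100 and -0.86 with all arrays. Of all tested probes it called 34.9% without that array and 36.7% with all arrays. The part that the content of these samples had in any result was not tested.

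The tags were mostly well measured and middling to bright. All 124 passed the detection filter and 112 (90.3%) were well above background on all 8 arrays, against 81.8% of tested probes. Their mean signals over the 8 arrays ran from -4.84 to 6.85 with a median of -0.79, and the median tag lay at percentile 67.5 of all probes (range 21.8 to 99.4). Tags read from the 5′ end had a median signal of -0.15 and those read from the 3′ end -2.55. The filter asked only that both arrays of any 1 cultivar detected the probe.

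The brightest tags were bright in every cultivar. CV049998.1 read 6.95 and 7.64 in Ruantiaohongmei, 5.64 and 6.56 in Xiyeqing, 6.80 and 7.13 in Manao, and 7.06 and 7.05 in Zhenkui. CB821265.1 read 7.09 and 6.84, 6.99 and 7.79, 6.39 and 6.55, and 6.22 and 5.47 in the same order of cultivars. The species overlapped for CV049998.1, with Xiyeqing lowest, and for CB821265.1 every P. mume array lay above every P. armeniaca array. CV052957.1 lay at 4.49 to 4.78 on the P. mume arrays and at 4.93 to 5.79 on the P. armeniaca arrays, and CB822175.1 at 4.00 to 6.37 and at 3.11 to 3.53. These last tags were likewise free of overlap, in opposite directions.

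Between species the tags lay in both directions. The mean of P. mume was lower for 73 tags (58.9%) and higher for 51, where it was lower for 56.2% of all tested probes. The tags had a median difference of -0.86 (quartiles -1.44 and 1.05), and the median over all tested probes was -0.11. With normexp background correction, which shrinks differences of dim probes, the median was -0.50. At least 2-fold lower in P. mume were 50 tags and at least 2-fold higher 35, and at least 4-fold lower were 16 and higher 11. Among the 9125 tested probes 1135 were at least 2-fold lower and 1033 higher. At least 4-fold lower were 264 of them and higher 344. On the 4 arrays of each species, 67 tags lay wholly lower and 33 wholly higher in P. mume, and 24 overlapped. Over all tested probes 39.9% were free of overlap, 23.7% wholly lower and 16.3% wholly higher. The limma fit of all probes, with a Benjamini-Hochberg adjusted p under 0.05 as the threshold, called 100 tags (80.6%), 67 lower and 33 higher in P. mume, where it called 36.7% of all tested probes, 21.6% lower and 15.1% higher. Of the tags, 73 were in the authors' species list, and the other 51 came from lists of cultivar pairs on the same arrays, so nothing is read from the gap to that background. Without the 2 P. mume arrays with endopolygalacturonase signal the fit called 92 tags, 64 lower and 28 higher, and the median was -0.92. That fit called 27.3% of all tested probes, 15.9% lower and 11.4% higher.

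**Figure D1:**
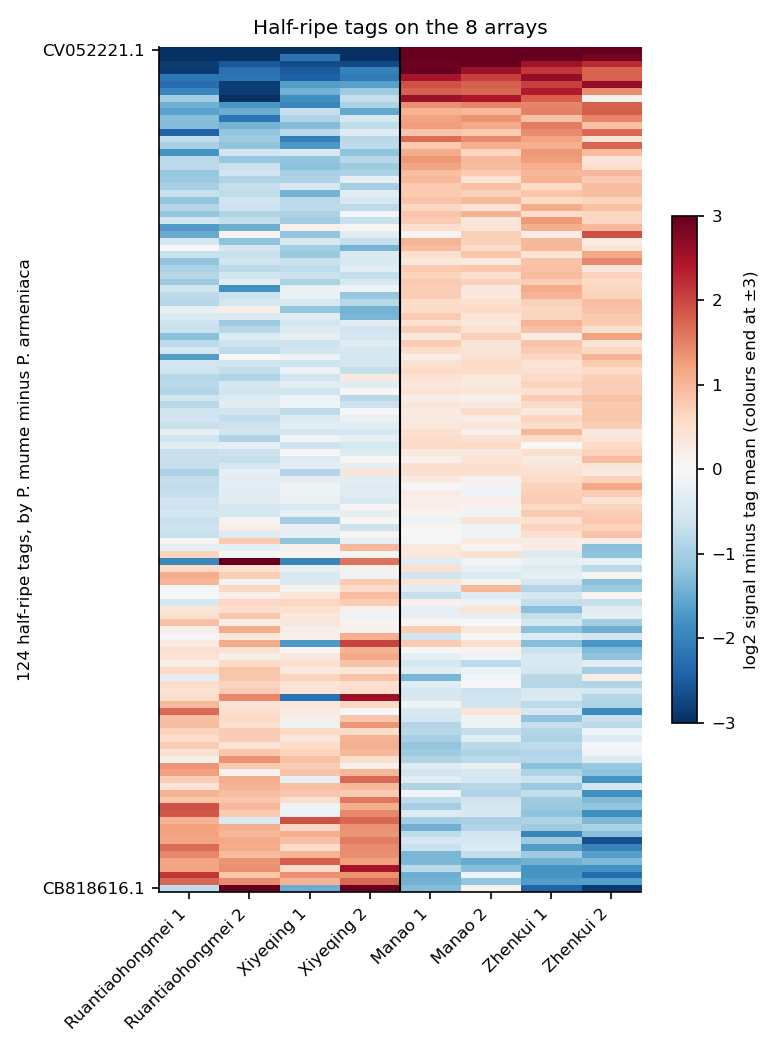
Log2 signal of each of the 124 half-ripe tags (rows, ordered by the mean of P. mume minus the mean of P. armeniaca) on each of the 8 arrays (columns), after subtracting the tag's mean over the 8 arrays; colours end at 3 either way. The upper 73 tags are lower and the lower 51 are higher in P. mume, and the bottom tag, CB818616.1, is high on the replicate 2 arrays of both P. mume cultivars.

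The slide had 2 rows of arrays, each with both species. The median tag was -0.72 for Ruantiaohongmei against Manao, in the first row, and -0.93 for Xiyeqing against Zhenkui, in the second, and 119 of 124 tags had the same sign in both (96.0%, against 79.6% of all tested probes). Both of these pairs are among the lists that chose the tags, so nothing is read from that gap. No tag was called for a difference between the rows' species contrasts, with 0.197% of all tested probes called (9 tags and 694 probes were under an unadjusted p of 0.05). In a principal component analysis of the tags the first component held 82.3% of the variance. All P. mume arrays lay at 9.77 to 12.6 on it and all P. armeniaca arrays at -12.6 to -9.33. The lists that chose the tags include the species contrast and the pairs across species, so nothing is read from that separation. The second component held 7.69%, and on it the P. mume replicate 1 arrays lay at -2.58 and -6.30 and the replicate 2 arrays at 3.67 and 4.47.

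**Figure D2:**
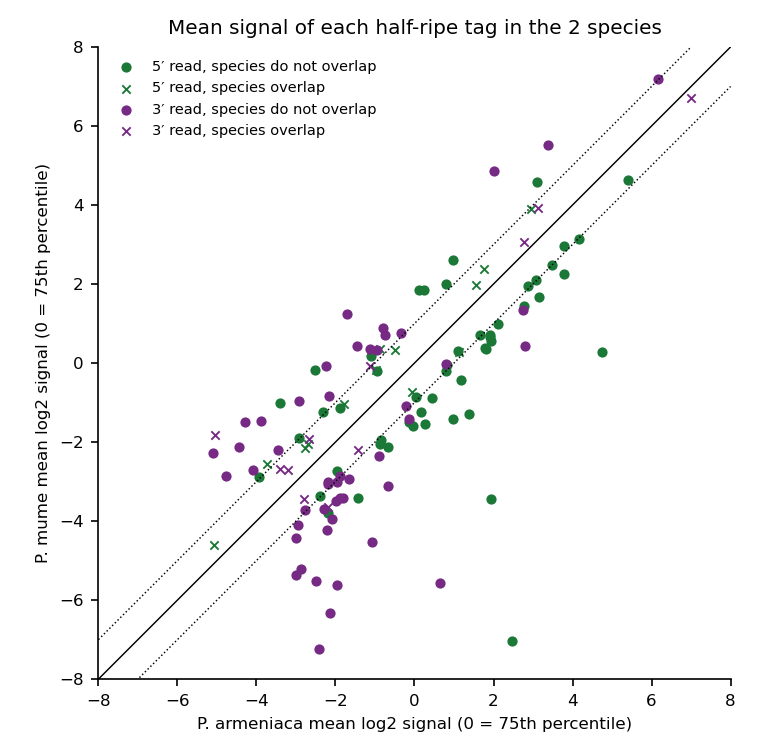
Mean log2 signal of each half-ripe tag over the 4 P. armeniaca arrays (x axis) and the 4 P. mume arrays (y axis), with 0 at the 75th percentile of an array. Colour gives the read end, filled points are tags whose 4 arrays of one species lie wholly on one side of the other, crosses are the 24 that overlap, the solid line is equality and the dotted lines are 2-fold. The point at the bottom right is CV052221.1.

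Tags that were far lower in P. mume were led by CV052221.1, from clone bge015i11q, read from the 5′ end. It read -7.71 and -6.24 in Ruantiaohongmei, -8.07 and -6.15 in Xiyeqing, 2.53 and 2.18 in Manao, and 2.63 and 2.49 in Zhenkui. All 4 apricot arrays were bright (2.46 ± 0.19, SD, n = 4), and no P. mume array was well above background. Because the P. mume side has only a bound, the tag was at least 231-fold higher in apricot as scaled here. That figure depends on the background correction: the difference was -7.57 on the log2 scale with the authors' deposited log2 values and -5.38 with normexp, both smaller than that bound. Such a bound sets the mean of the brighter species against, per P. mume array, the probe's own signal or, where higher, the dimmest signal of any probe that was well above background there.

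A pair of other tags had no P. mume array well above background, and their bounds too hold only for this scaling. CV050203.1 read -7.71 and -7.08 in Ruantiaohongmei, -7.36 and -6.86 in Xiyeqing, -1.66 and -2.25 in Manao, and -2.71 and -3.05 in Zhenkui, at least 7.87-fold higher in apricot. CB821702.1 read -6.51 and -7.08, -5.90 and -5.87, -2.32 and -2.43, and -2.18 and -1.59 in the same order, at least 9.59-fold higher. In both the species did not overlap, and both were dim even in apricot. With the authors' deposited log2 values the differences of CV050203.1 and CB821702.1 were -2.96 and -2.83 on the log2 scale, and with normexp -1.17 and -1.23. A further 7 tags were well above background on 1 to 3 of the P. mume arrays, 6 of them lower there. No tag lacked detection on every P. armeniaca array, and 2 were detected on some of them.

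Other strong cases were measured in both species. CV052517.1 read -3.61 and -3.29 in Ruantiaohongmei, -3.43 and -3.44 in Xiyeqing, 2.16 and 2.34 in Manao, and 1.76 and 1.48 in Zhenkui. It was 41.5-fold lower in P. mume (-5.37 ± 0.21 on the log2 scale, SE of the fit, and -4.08 with normexp), with every array well above background. CV053221.1 read 0.35 and 0.34 in Ruantiaohongmei, 0.08 and 0.40 in Xiyeqing, 4.99 and 4.58 in Manao, and 5.17 and 4.30 in Zhenkui. Its P. mume arrays were close together (0.29 ± 0.14, SD, n = 4), and it was 22.1-fold lower there (-4.47 ± 0.23, and -4.32 with normexp) while still above the 75th percentile, so the probe gave a strong signal in both species. CB821987.1 read -6.58 and -5.54, -4.68 and -5.47, 0.62 and 0.50, and 1.05 and 0.40 in the same order of cultivars, with 2 of the 4 P. mume arrays well above background. As scaled its difference was -6.21, and it was -3.48 with normexp.

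The last of the 8 lowest tags were dimmer or more variable. CB821813.1 read -5.75 and -6.63 in Ruantiaohongmei, -5.22 and -4.87 in Xiyeqing, -1.99 and -2.08 in Manao, and -1.42 and -2.40 in Zhenkui (-3.64 as scaled and -1.29 with normexp), with 2 of the 4 P. mume arrays well above background. CB822444.1 read -3.86 and -6.10, -4.63 and -3.52, -0.21 and -0.39, and -1.02 and -2.70 in the same order (-3.45 as scaled and -1.75 with normexp), with 3 of the 4 well above background. The arrays of Ruantiaohongmei, Xiyeqing and Zhenkui were each more than 1 apart for that tag, and its gap between species, from -3.52 to -2.70, was narrow.

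Tags higher in P. mume differed less. CB822233.1, from clone be005k24, read 1.50 and 1.18 in Ruantiaohongmei, 0.79 and 1.49 in Xiyeqing, -1.64 and -1.39 in Manao, and -1.91 and -1.89 in Zhenkui, and was 7.72-fold higher in P. mume (2.95 ± 0.22, and 2.53 with normexp). CB821871.1, a bright tag, read 5.59 and 4.27 in Ruantiaohongmei, 4.82 and 4.79 in Xiyeqing, 1.97 and 3.32 in Manao, and 1.68 and 1.11 in Zhenkui (2.85 ± 0.47, and 2.78 with normexp). Both were free of overlap, with the Manao arrays of CB821871.1 the nearest to P. mume. CB822386.1 read -2.51 and -2.29, -3.12 and -1.21, -4.49 and -4.97, and -5.48 and -5.48 in the same order (2.82 as scaled and 1.25 with normexp), with 3 of 4 apricot arrays well above background. CV051060.1 read -1.70 and -1.53, -1.10 and -1.66, -4.22 and -4.39, and -4.30 and -4.20 (2.78 ± 0.18, and 1.57 with normexp), with its apricot arrays close together (SD 0.08, n = 4).

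The remaining leaders in that direction lay between 2.31 and 2.42 as scaled, and between 1.18 (CV050372.1) and 1.71 (CV053046.1) with normexp. CB822514.1 ran from -1.73 to -1.23 in P. mume and from -4.33 to -3.40 in P. armeniaca. CV050372.1 ran from -2.27 to -1.96 and from -5.27 to -3.86. In both the P. mume arrays were closer together than the apricot arrays. CV052416.1 ran from -1.67 to -0.53 in P. mume, at -2.88 and -2.62 in Manao, and at -3.89 and -4.22 in Zhenkui. CV053046.1 ran from -0.47 to 0.19, with -1.88 and -1.84 in Manao and -2.41 and -3.98 in Zhenkui. For both tags Zhenkui was the farther of the apricot cultivars from P. mume.

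**Figure D3:**
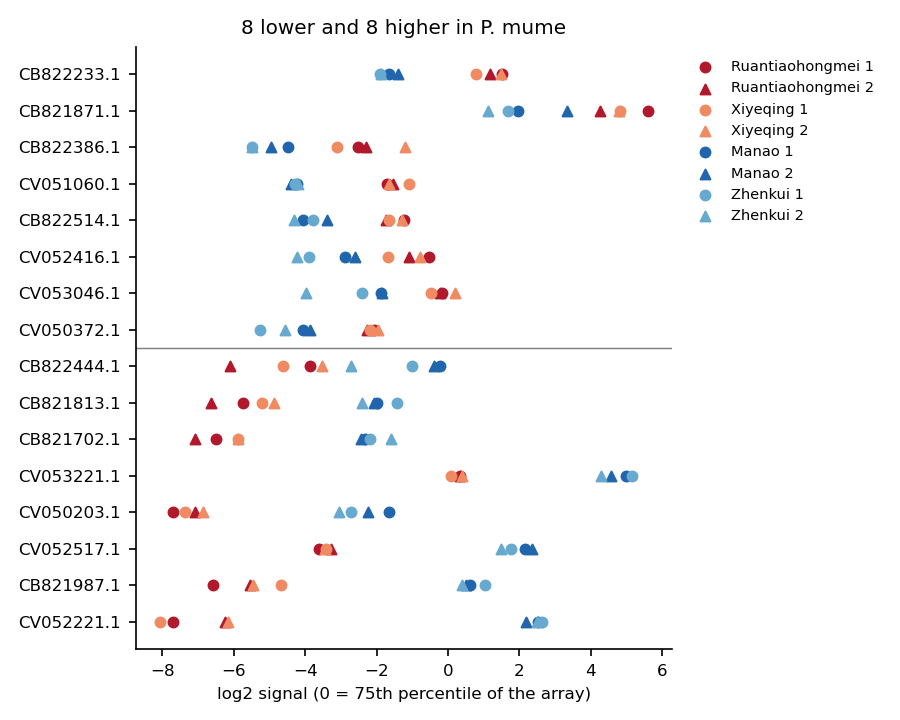
Log2 signal (x axis, 0 is the 75th percentile of the array) of the 8 tags with the largest differences either way among those whose species do not overlap; colour is the cultivar, circles are replicate 1 and triangles replicate 2. CV052221.1 lies between -8.07 and -6.15 in P. mume and between 2.18 and 2.63 in P. armeniaca, and the 8 higher tags are separated by smaller gaps.

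Some tags in the lists hardly differed between the species' means. CV050482.1 (0.30) read 2.68 and 2.65 in Ruantiaohongmei, 3.07 and 3.91 in Xiyeqing, 3.25 and 3.01 in Manao, and 3.17 and 1.68 in Zhenkui. CV051704.1 (0.43) read 2.43 and 1.80, 1.84 and 1.86, 2.09 and 2.21, and 1.35 and 0.55 in the same order. The species overlapped in both, and the second Zhenkui array was the lowest in each. CV049998.1 (-0.31) and CV052364.1 (0.47) are described above and below. At the edge of the lists, CV052154.1, CV051270.1 and CV051891.1 had largest folds of 2.0025, 2.0050 and 2.0203 in the authors' deposited tables. The nearest CB or CV probes under the bound, CV045389.1, CB821405.1 and CB818446.1, had 1.9995, 1.9977 and 1.9972 in the authors' deposited tables. Some probes of at least 2-fold in the authors' deposited full tables were not listed, among them 5 of the 78 tags for the species contrast.

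By read end, of 64 tags read from the 5′ end, 40 (62.5%) were lower and 24 higher in P. mume (median -0.92), and of 60 read from the 3′ end 33 (55.0%) were lower and 27 higher (median -0.79), with 56.2% of all tested probes lower. At least 4-fold apart were 7 of the former, 2 of them higher, and 20 of the latter, 9 of them higher. The 3′ tags were also the dimmer ones, so end and brightness move together, and their parts in this were not tested.

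The median of the half-ripe tags lay between those of the green and the ripe tags of the same project. The 197 described tags of the green fruit library had a median of -0.99, with 136 lower in P. mume, and the 82 of the ripe fruit library had a median of -0.64, with 45 lower. Lower in P. mume were thus 73 of 124 half-ripe tags. The shares called were 80.6% for half-ripe, 80.7% for green and 82.9% for ripe tags. All of these were listed by the authors by the same rule, and the differences between libraries were not tested. The 1898 tested CB or CV probes without a description had a median of -0.14, and 24.2% of them were called.

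**Figure D4:**
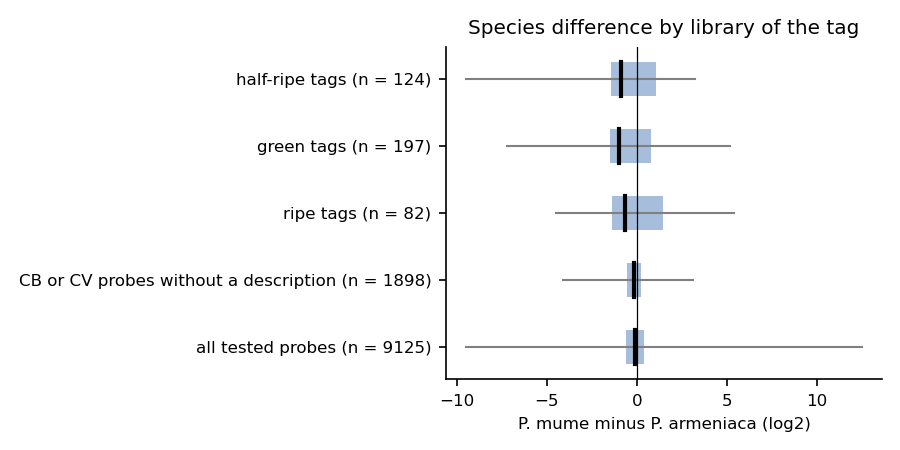
Species difference (P. mume minus P. armeniaca, log2) of the half-ripe tags beside the green and ripe tags, the CB or CV probes without a description and all tested probes. Bars span the quartiles, the black mark is the median and grey lines run from the lowest to the highest probe; the described tags are wide because the authors listed them for differing.

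The cultivar means of the tags took 14 different orders from low to high. Both P. mume means lay below both P. armeniaca means for 72 tags and above both for 43, and for 9 the cultivars were interleaved. The order Ruantiaohongmei, Xiyeqing, Manao, Zhenkui from low to high was the commonest, with 37 tags, and its exact reverse held for 19. Counts of these orders over all tested probes are not given, and the lists chose the tags, so nothing is read from them. Zhenkui lay farther from P. mume than Manao for 91 tags (73.4%), 53 of the 73 lower and 38 of the 51 higher ones, where the shares over all tested probes were 62% and 63.1%. Both Zhenkui arrays lay above the other 6 for 31 tags, with 16.8% of all tested probes doing so, and below the other 6 for 29, with 11.9%. The authors' lists of Ruantiaohongmei and Xiyeqing against Zhenkui held 106 and 87 tags, and those against Manao 71 and 66. These lists chose the tags, so nothing is read from the gaps to all tested probes. Both Ruantiaohongmei arrays lay below the other 6 for 22 tags, with 11.2% over all tested probes. Ruantiaohongmei lay above the other 6 arrays for 9 tags (5.18% over all tested probes) and Manao for 8 (6.68%). Xiyeqing lay above them for 3 tags (4.31%) and below for 5 (3.43%), and Manao below for 3 (4.93%).

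The 4 pairs of cultivars from different species share arrays, so their counts are given side by side. Limma called 104 tags between Ruantiaohongmei and Zhenkui, 67 of them lower in Ruantiaohongmei, with 34.6% of all tested probes called and 20.4% lower. It called 94 between Xiyeqing and Zhenkui, 61 lower in Xiyeqing, with 27.8% of all called and 15.3% lower. It called 77 between Ruantiaohongmei and Manao, 51 lower in Ruantiaohongmei (21.6% of all, 12.9% lower), and 61 between Xiyeqing and Manao, 41 lower in Xiyeqing (15.8% of all, 8.65% lower). The pairs with Manao rested on both of its arrays. Without either of them fewer tags, and fewer of all tested probes, were called in both pairs. The same held for Xiyeqing and Manao without Xiyeqing replicate 2, and for Ruantiaohongmei and Manao without Ruantiaohongmei replicate 1. It also held for Xiyeqing and Zhenkui without Xiyeqing replicate 2 or either Zhenkui array. Such fits leave a cultivar with 1 array, so their counts are not given here. In the authors' deposited lists the tags numbered 106, 87, 71 and 66 in these 4 pairs, with folds up to 194, 201, 181 and 188, where 17.8%, 15.6%, 13.1% and 11.5% of all probes were listed.

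Within P. mume, limma put 13 tags and 679 tested probes under an unadjusted p of 0.05. Called was 1 tag, CV052509.1, with 0.592% of all tested probes called, 0.515% lower in Ruantiaohongmei. It read 0.71 and 0.96 in Ruantiaohongmei, 2.57 and 2.49 in Xiyeqing, 2.92 and 2.79 in Manao, and 3.52 and 3.38 in Zhenkui. Ruantiaohongmei lay 1.69 below Xiyeqing, the arrays of each cultivar were within 0.25 of each other, and Xiyeqing lay near Manao. This call was lost when any 1 array other than Ruantiaohongmei replicate 1 was left out, and also without the 2 arrays with endopolygalacturonase signal. CB822175.1 read 5.50 and 4.00 in Ruantiaohongmei against 6.37 and 6.18 in Xiyeqing, and CV050607.1 read -6.62 and -5.33 against -4.98 and -4.56. CV053010.1 went the other way, with 1.87 and 2.29 in Ruantiaohongmei against 0.95 and 0.71 in Xiyeqing, and 2.68 to 2.97 in apricot. Also higher in Ruantiaohongmei on both arrays, without a call, were CV052622.1 (1.22), CV049998.1 (1.19) and CV051951.1 (0.97). Both Ruantiaohongmei arrays lay above both Xiyeqing arrays for 15 tags (11.0% of all tested probes), and below them for 26 (19.4%). The authors' deposited list for this pair held 5 of the tags, with folds of 2.09 to 3.24 and 1.83% of all probes listed.

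Within P. armeniaca limma called no tag and no probe at all (0.0% of all tested probes), with 20 tags and 1022 probes under an unadjusted p of 0.05. Both Manao arrays lay above both Zhenkui arrays for 38 tags (24.4% of all tested probes), and below them for 35 (27.8%). The authors' deposited list for this pair held 10 of the tags, all higher in Manao, with folds of 2.08 to 4.05 and 2.0% of all probes listed. CV052278.1 read 0.71 and 0.46 in Manao against -1.35 and -1.82 in Zhenkui, and CV052187.1 read 0.21 and -0.25 against -1.82 and -2.04. In both, Manao lay within the range of the P. mume arrays, and Zhenkui lay at the low end of that range for the former and below it for the latter. In the other direction CB821404.1 read 0.31 and 0.27 in Manao against 1.04 and 1.53 in Zhenkui, and CB822194.1 read -3.40 and -3.43 against -2.85 and -2.28. CV052957.1 and CB822466.1 were likewise higher in Zhenkui, by 0.76 and 0.74. The 4 tags chosen as higher in Manao differed by 1.56 to 2.17, and the 4 higher in Zhenkui by 0.74 to 1.00.

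The arrays of 1 cultivar differed by a median of 0.33 over the tags in Ruantiaohongmei, 0.38 in Xiyeqing, 0.18 in Manao and 0.37 in Zhenkui, against 0.34, 0.34, 0.18 and 0.32 over all tested probes. The lists were made from differences between group means and not from these differences between replicates. An outlying array shifts a mean, however, and so can bring a tag into a list. Nothing is therefore read from the gaps to all tested probes here. At least 2-fold apart were 19 tags in Ruantiaohongmei, 19 in Xiyeqing, 4 in Manao and 8 in Zhenkui. The shares over all tested probes were 11.3%, 8.39%, 2.64% and 7.18% in the same order. Manao was thus the cultivar whose arrays were most alike.

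A pair of tags followed endopolygalacturonase between the P. mume arrays. CB818616.1, from clone be005g12, read -4.18 and 1.03 in Ruantiaohongmei, -4.91 and 0.80 in Xiyeqing, -4.74 and -3.32 in Manao, and -5.84 and -6.30 in Zhenkui. CV052364.1, from clone bge015p07q, read -6.76 and -1.63, -6.82 and -3.21, -5.21 and -4.98, and -5.07 and -5.05 in the same order. In each tag both replicate 2 arrays of P. mume lay above every other array, and the replicate 1 arrays lay among or below those of apricot. CB818616.1 was well above background on 2 of the 4 apricot arrays and CV052364.1 on 2 of the 4 P. mume arrays, so their low signals are only bounds. Replicate 2 exceeded replicate 1 by 5.21 and 5.72 for CB818616.1 and by 5.13 and 3.60 for CV052364.1. These 2 tags were among 18 of 9125 tested probes (0.197%) that were at least 8-fold higher on replicate 2 in both P. mume cultivars, and no probe was that much lower. No tested probe differed as much in both apricot cultivars.

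Of the 6 endopolygalacturonase probes 5 shifted as far, and none of those counts among the 18, since only 1 of the 6 passed the detection filter. The other described probes among the 18 were lipoxygenases, which start the making of aroma aldehydes from fatty acids, and a chitinase. Lipoxygenase EU439430.1 exceeded its replicate 1 signal by 8.45 in Ruantiaohongmei and 4.58 in Xiyeqing, lipoxygenase EF568783.1 by 8.37 and 5.08, and a putative class IV chitinase (EF640689.1) by 8.08 and 5.16. The species difference of the 2 tags rested on these arrays. Without them CB818616.1 went from 3.23 to 0.50 and CV052364.1 from 0.47 to -1.71, which turned the latter's direction. Neither was called with all 8 arrays.

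Shifts of another kind were seen between the Xiyeqing arrays. CV052278.1 read 0.18 and 1.04 in Ruantiaohongmei against -1.81 and 1.95 in Xiyeqing. CV052031.1, chosen after its values were seen, read -2.58 and -1.71 against -5.38 and -0.56, with -4.0 to -3.57 in apricot. The Xiyeqing replicates were 3.76 and 4.81 apart, on either side of apricot for CV052031.1, while those of Ruantiaohongmei were 0.85 and 0.88 apart. Their species differences of 0.84 and 1.18 became -0.31 and -0.25 without the 2 arrays.

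**Figure D5:**
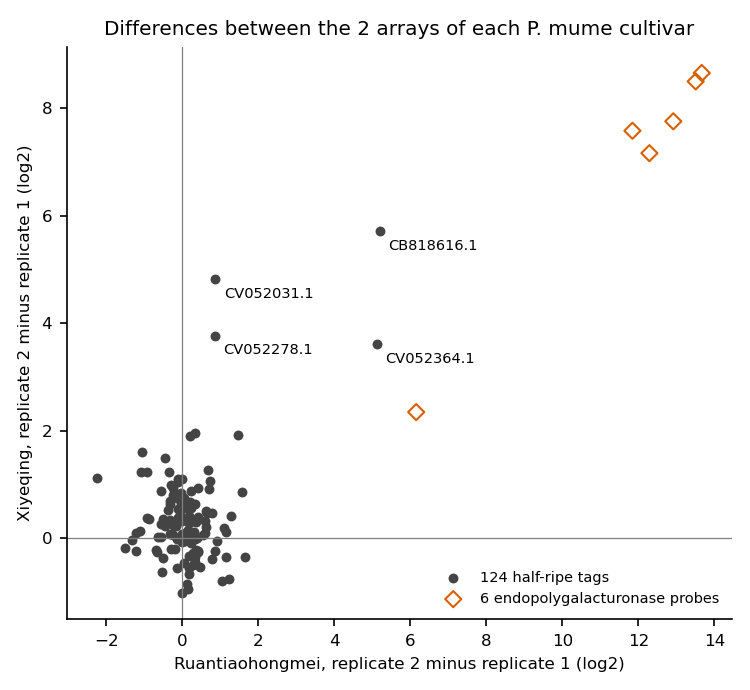
Replicate 2 minus replicate 1 (log2) in Ruantiaohongmei (x axis) and Xiyeqing (y axis) for the 124 half-ripe tags (points) and the 6 endopolygalacturonase probes (diamonds). Most tags lie within 2 of 0 on both axes, CB818616.1 and CV052364.1 lie towards the endopolygalacturonase probes, and CV052031.1 and CV052278.1 are shifted in Xiyeqing.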

How the data were processed

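Fruit RNA was measured on 8 one-colour Agilent arrays. Per the file headers, the deposited intensity values were background-subtracted and detrended by Feature Extraction 10.7.1.1, while 8.1 is the version in the submitters' processing notes. A log2 table deposited by the authors has a normalization that the sources used here do not give, and the authors' comparison tables give each probe a log2 difference, a fold (ratio) and a p-value without adjustment.

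Signals were log2 of the processed intensity minus each array's 75th percentile over non-control probes, without control or outlier spots, spots of a probe being averaged. A probe was tested if both arrays of 1 cultivar or more had it well above background (9125 of 10384). Limma 3.58.1 in R 4.3.3 was fitted over all tested probes, for species with a random block for cultivar (its consensus correlation was 0.078), and for cultivar pairs as contrasts of the 4 cultivar means. A call was a p under 0.05 after Benjamini-Hochberg adjustment. Tested on simulated data for the species comparison (9125 probes), the fit called 67 of 100 probes changed by 1 and 90 of 100 changed by 2 on the log2 scale, with 17 false calls. The simulated noise was independent between arrays and had only the spread within cultivars. Differences between cultivars of a species and shifts shared by the probes of an array were left out. The false calls therefore do not measure those in the real data. The number of arrays limits the precision.

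Named tags are the 8 largest species differences each way without overlap, the 4 largest each way between cultivars of a species, the 4 brightest, dimmest and least different, and those at the 2-fold bound. The tags, lists and rules were chosen with earlier results of these data known. Alternatives were normexp correction (offset 50, on the median spot signal, where the mean signal had been planned), quantile normalization, the authors' deposited log2 values, other filters, spread models and blocks, and leaving out arrays. No identifier had more than 1 tag probe, so agreement between probes of 1 tag was not examined.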

Additional observations from a re-analysis of the deposited data

Results flagged for a closer look

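Among 76 sets of 4 arrays of 1 species examined for the named tags, 4 held an array far from the other 3, where chance gives about 5% of sets. CV052187.1 had its highest P. mume array at 0.54 (Ruantiaohongmei replicate 2), the other 3 lying between -0.48 and -0.38. CV051704.1 had its highest at 2.43 (Ruantiaohongmei replicate 1), above 1.80 to 1.86. In P. armeniaca, CV050482.1 had its lowest array at 1.68 (Zhenkui replicate 2), below 3.01 to 3.25, and CV052154.1 at -2.22 (Zhenkui replicate 1), below -1.78 to -1.77.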

How the results depend on the processing

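The called tags between species numbered 91 to 113 when 1 array was left out, 30 to 41 of them higher and 60 to 72 lower in P. mume, with medians of -0.94 to -0.77 and 100 to 104 tags free of overlap. Those fits called 28.1% to 45.8% of all tested probes, 11.6% to 19.7% higher and 16.5% to 26.1% lower. With normexp correction the median was -0.50. Leaving out 1 array gave 23 to 84 tags for Ruantiaohongmei and Manao, 80 to 106 for Ruantiaohongmei and Zhenkui, 17 to 61 for Xiyeqing and Manao, 55 to 97 for Xiyeqing and Zhenkui, 0 to 1 between the P. mume cultivars, and 0 between the apricot cultivars and for the row contrast. Fewer arrays enter those fits, and a cultivar left with 1 array is assumed to vary like the others. For the pairs of cultivars from different species, the share of all tested probes called also shifted with the array left out. The ranges are therefore not particular to the tags, and nothing about the tags is read from them. Without both P. mume replicate 2 arrays, a setting chosen after the data were seen, the call between the P. mume cultivars was lost (0 tags). Of 674 values of single tags under the alternatives, 630 moved by less than the replicate spread, 44 moved by more, and no called tag changed direction. Many of the 630 could not move, because other filters, spread models and blocks leave the difference of a tag unchanged. The tally is therefore no measure of stability. Over all probes the species fit called 3349, and 2730 with normexp correction (1315 higher and 1415 lower in P. mume, against 1380 and 1969), where the median of all probes was 0.06 in place of -0.11. Correlations of same-numbered deviations ran from -0.18 (Xiyeqing and Zhenkui) to 0.39 (Manao and Zhenkui), so the replicate numbers did not pair all cultivars alike. In both P. mume cultivars, 122 of 9125 tested probes were at least 2-fold higher on replicate 2 and 11 on replicate 1. With the replicate number as a block 103 tags were called between species, with 33.9% of all tested probes called. The 4 pairs above then had 80, 105, 63 and 100 tags, in the order Ruantiaohongmei with Manao and Zhenkui, then Xiyeqing with Manao and Zhenkui. Shares over all tested probes are not given for these pairs with that block, so nothing is read from their counts.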
